A study of Rattus norvegicus with 4 samples.

Results

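The integrins and focal adhesion genes described here are 35 named genes, out of 32883 genes in the files, found by their gene symbols. They comprise 15 integrin alpha chains, 8 integrin beta chains and 12 genes for proteins that couple integrins to actin or signal from them. All 35 symbols were present, and none was a marker used to sort the nuclei. The genes were described in single-nucleus RNA sequencing of fat from male Dahl salt-sensitive rats of the strain SS/HsdMcwiCrl, 16 weeks old and naïve, meaning untreated. The samples were 2 libraries of perivascular adipose tissue of the thoracic aorta (taPVAT) and 2 libraries of brown adipose tissue from the subscapular depot (BAT). Each library came from about 50 mg of snap-frozen tissue, and the design text gives 2 rats per tissue without saying whether 1 rat gave both. With 2 libraries per tissue, every tissue test rests on the spread between 2 rats or samples.

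Integrins are surface receptors made of 1 alpha and 1 beta chain. They bind collagen, laminin, fibronectin and related matrix proteins, or counter-receptors on other cells, and the chain pairing sets the ligand. Inside the cell, talin and kindlin bind the beta chain tail and switch the receptor on, vinculin and the complex of integrin-linked kinase with parvin tie it to actin, and focal adhesion kinase and paxillin carry the signal. In fat, lipid-laden adipocytes sit in a basement membrane, vessels carry endothelium, smooth muscle and pericytes, and leukocytes enter through the vessel wall with their own integrins.

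The libraries held 14765 to 44637 barcodes and 63654436 to 158140959 unique molecular identifiers (UMIs, single counted RNA molecules). Of these barcodes, 12336 to 42979 per library had at least 500 detected genes and were kept. The target was 10000 nuclei per library. Pairs of libraries shared 93 to 381 barcode sequences. Counted markers placed 91762 nuclei in an adipocyte-like class, 8098 in a vascular endothelial-like class, 3381 in a fibroblast-like class and 3309 in a mural-like class, the last meaning smooth muscle and pericytes. Smaller classes resembled myeloid cells (1742 nuclei), T or NK lymphocytes (797), lymphatic endothelium (353), Schwann cells (278), B lymphocytes (262) and mesothelium (179), and all are named without the suffix from here on. Adipocytes were 76.5 to 81.4% of the kept nuclei of a library. Ucp1, the uncoupling protein that defines brown adipocytes, stood at 935 and 456 UMIs per 1000000 in taPVAT adipocytes and 1539 and 650 in BAT adipocytes. The libraries of the tissues thus overlapped in it. Between libraries of the same replicate number the BAT value was the higher one, though the labels do not tie the numbers together. RNA of adipocytes was found in all the other classes. Measured by the median adipocyte marker, it amounted to 45.5 to 70.3% of the adipocyte level in fibroblast nuclei of the 4 libraries, 59.2 to 73.8% in vascular endothelial, 63.2 to 76.1% in mural, 60.4 to 78.5% in myeloid and 73.2 to 85.8% in T or NK nuclei. A member whose level in a class lies within that share of its adipocyte level is therefore not shown to be expressed there. The median share of mitochondrial UMIs was 7.15% in adipocyte nuclei and 10.1 to 16.0% in the other named classes.

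Levels are UMIs of a gene per 1000000 UMIs of that class in that library (CPM). They follow a gene across classes and libraries and are not used to rank one gene against another. Values for the 4 libraries are given in the order taPVAT 1, taPVAT 2, BAT 1, BAT 2. In the class comparison, each class was set against the unweighted mean of the other 8 classes in all 4 libraries by edgeR's quasi-likelihood test with the library as a block. It tested 10686 genes and 32 of the 35 members, and a member was called at a Benjamini-Hochberg adjusted p under 0.05 over all genes tested. Itga10, Itgax and Itgb6 were too low to be tested. The reference mean also held a class of 279 nuclei gated by red cell markers, called erythroid here. These nuclei held a median of 68 adipocyte marker UMIs, against 80 in adipocytes. Their median adipocyte marker was at 80.9 to 89.1% of the adipocyte level, so RNA like that of adipocytes is part of the reference. Fold changes are log2 values with the standard error (SE) of the fit.

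Adipocytes stood low for most of the members. Of the 32 tested members 3 were higher in adipocytes than in the mean of the other classes and 19 were lower, where 25.7% of all genes tested were higher and 19.6% lower. The higher members were the tensin Tns1 (log2 0.42 ± 0.09), the laminin receptor chain Itga7 (0.33 ± 0.13, adjusted p = 0.048) and the RGD receptor chain Itgav (0.19 ± 0.08, adjusted p = 0.044), all by small amounts. Adipocyte RNA in the other classes limits how far a gene can be higher in adipocytes. The adipocyte markers themselves summed to 22069 to 22669 CPM in adipocytes and 9560 to 15790 CPM in fibroblasts. Lower values in adipocytes are less limited by it. Without BAT 1 or without BAT 2 the count of higher members was 1, and the calls of Itgav and Itga7 were lost under 6 of the 9 other settings tried (a stricter and a looser gate, another scaling, no filter on low counts, DESeq2, and each of the 4 libraries left out), whereas the Tns1 call held in all 9. Without the erythroid class in the reference, 1 member was higher and 22 were lower. With nuclei limited to 5% mitochondrial UMIs, 0 were higher, so Tns1 was not called there, and 10 were lower. The median over the members in the main fit was -0.76, against 0.06 over all genes tested.

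Itga1, a collagen receptor chain, was at 230, 195, 188 and 169 CPM in adipocytes and passed the test in neither direction. Itgav, which pairs with several beta chains to bind RGD ligands such as vitronectin and fibronectin, was at 103, 97.1, 101 and 93.2 CPM there, a narrow range over libraries of both tissues. Itgb1, the most widely shared beta chain, was at 147, 165, 140 and 167 CPM and was called lower, by -0.36 ± 0.11, a call lost under 2 of the 9 other settings. Itgb5, a partner of Itgav, was at 63.7, 117, 59.6 and 123 CPM (0.28 ± 0.14, not called), and both libraries numbered 2 were above both numbered 1. Itga7 was at 92.1, 37.1, 102 and 44.8 CPM, and here the libraries numbered 1 were the higher ones in both tissues. Called values in adipocytes were most negative for Itgb3 (-3.25 ± 0.59), Itga9 (-2.94 ± 0.48) and Itga4 (-2.79 ± 0.21). The Itgb3 call, on 0.461 to 0.992 CPM, was lost under 3 of the 9 other settings, and those of Itga9 and Itga4 held in all 9.

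**Figure D1:**
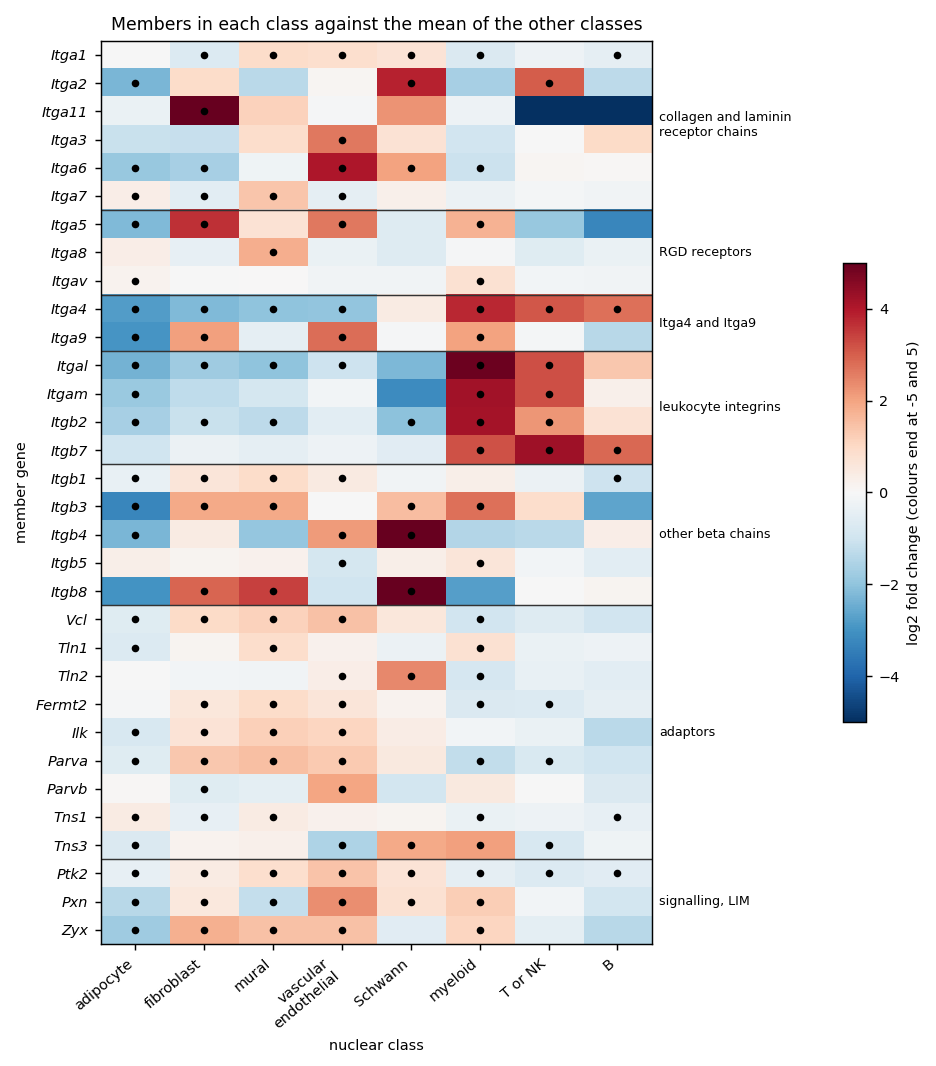
Log2 fold change of each tested member (rows, by role) in each nuclear class (columns) against the mean of the other classes, with a black dot where the adjusted p is under 0.05; colours end at a size of 5. Adipocytes are blue for most members, with 19 of 32 called lower, while vascular endothelial, mural, fibroblast and myeloid nuclei each hold 13 to 16 members called higher.

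The collagen and laminin receptor chains were spread over different classes. Itga6, the laminin receptor chain that pairs with Itgb1 or Itgb4, marked vascular endothelial nuclei at 230, 222, 289 and 175 CPM. In Schwann nuclei it was at 57.1, 132, 58.8 and 56.9 CPM, and in adipocytes at 3.13 to 8.2 CPM. No library of any other class, lymphatic endothelium included, reached the lowest vascular endothelial library, and Itga6 was higher there by 4.06 ± 0.14 on the log2 scale (adjusted p = 5.4e-23) and higher in Schwann nuclei by 2.02 ± 0.29 (adjusted p = 1.1e-06). Itga3, another laminin receptor chain, was at 6.10, 22.6, 9.68 and 29.7 CPM in vascular endothelial nuclei, where it was higher by 2.63 ± 0.32 (adjusted p = 1.4e-08). The 2 libraries numbered 2 held the higher values.

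Itga11, a receptor chain for fibrillar collagen, was read mainly in fibroblasts. It was at 45.6, 62.3, 40.2 and 41.1 CPM in fibroblasts, and every library of every other class was below 2 CPM except BAT 2 in Schwann nuclei, at 5.99 CPM from 2 UMIs. The fitted difference was 7.65 ± 0.30 (adjusted p = 2.7e-19), a value that depends on classes with 0 UMIs, such as T or NK and B lymphocytes. Itga1 was highest in mural nuclei (450, 378, 392 and 291 CPM), vascular endothelial nuclei (368, 367, 343 and 342 CPM) and Schwann nuclei (389, 340, 393 and 237 CPM), whose ranges overlap. It was called higher in all 3 of these classes, by 0.93 ± 0.09, 0.85 ± 0.09 and 0.67 ± 0.11, and lower in fibroblasts (-0.69 ± 0.10) and myeloid nuclei (-0.74 ± 0.11). A lower call in B lymphocytes (-0.44 ± 0.14, adjusted p = 0.047) was lost under 7 of the 9 other settings. Itga7 was higher in mural nuclei by 1.39 ± 0.14 (adjusted p = 3.9e-10), at 143, 130, 149 and 98.9 CPM. Itga2, a collagen receptor chain of platelets, epithelium and some lymphocytes, was higher in Schwann nuclei (17.8, 31.5, 28.2 and 27.0 CPM; 3.84 ± 0.45) and in T or NK nuclei (10.7, 40.5, 19.6 and 5.53 CPM; 3.04 ± 0.40), on 3 to 22 UMIs per library. Itga10, a chondrocyte collagen receptor chain, had 0 to 7 UMIs per library in every class other than adipocytes. Its 7 UMIs in mural nuclei were all in taPVAT 2.

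Among the RGD receptors, Itga5, the alpha chain of the classical fibronectin receptor, was highest in fibroblasts at 31.2, 186, 44.5 and 171 CPM (3.66 ± 0.24, adjusted p = 4.4e-15). It was also higher in vascular endothelial nuclei (29.7, 56.2, 37.8 and 56.5 CPM; 2.63 ± 0.27) and myeloid nuclei (11.7, 47.0, 16.8 and 51.3 CPM; 1.74 ± 0.34). In these 3 classes both libraries numbered 2 were above both libraries numbered 1, whichever the tissue. Itga8, a receptor chain for nephronectin that is typical of contractile cells, was higher in mural nuclei only (22.6, 18.2, 55.6 and 35.9 CPM; 1.82 ± 0.21, adjusted p = 4.3e-09) among the classes tested. Itgav was higher in myeloid nuclei, at 154, 187, 146 and 141 CPM (0.76 ± 0.08, adjusted p = 2.0e-09), and stood between 63.9 and 106 CPM in the libraries of adipocyte, fibroblast, vascular endothelial, mural, T or NK, B lymphocyte and Schwann nuclei.

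Itga4 and Itga9 belong to one subfamily. Both were called higher in myeloid nuclei, and they differed in the other classes that were. Itga4, which binds Vcam1 and fibronectin, was a leukocyte chain in these data: 282, 438, 374 and 388 CPM in myeloid nuclei, 245, 401, 226 and 173 CPM in T or NK nuclei and 214, 435, 154 and 108 CPM in B lymphocytes. All 3 classes were called higher (3.79 ± 0.15, 3.12 ± 0.17 and 2.74 ± 0.25), and fibroblasts, mural, vascular endothelial and adipocyte nuclei lower. Itga9, a receptor chain for tenascin C and osteopontin known from lymphatic valves, was higher in vascular endothelial nuclei (78.4, 103, 60.0 and 55.8 CPM; 2.80 ± 0.25), fibroblasts (53.9, 63.7, 29.4 and 45.7 CPM; 2.06 ± 0.29) and myeloid nuclei (37.1, 69.1, 48.0 and 31.3 CPM; 2.00 ± 0.31). Its level was higher still in lymphatic endothelial nuclei, which were too few in BAT for a test: 402 and 906 CPM in taPVAT and 410 and 285 CPM in BAT. These BAT values rest on 26 and 29 UMIs from 13 and 17 nuclei, with 95% Poisson intervals, which cover counting error only, of 268 to 601 and 191 to 409 CPM. Even the lowest of these 4 libraries was above the highest vascular endothelial library.

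**Figure D2:**
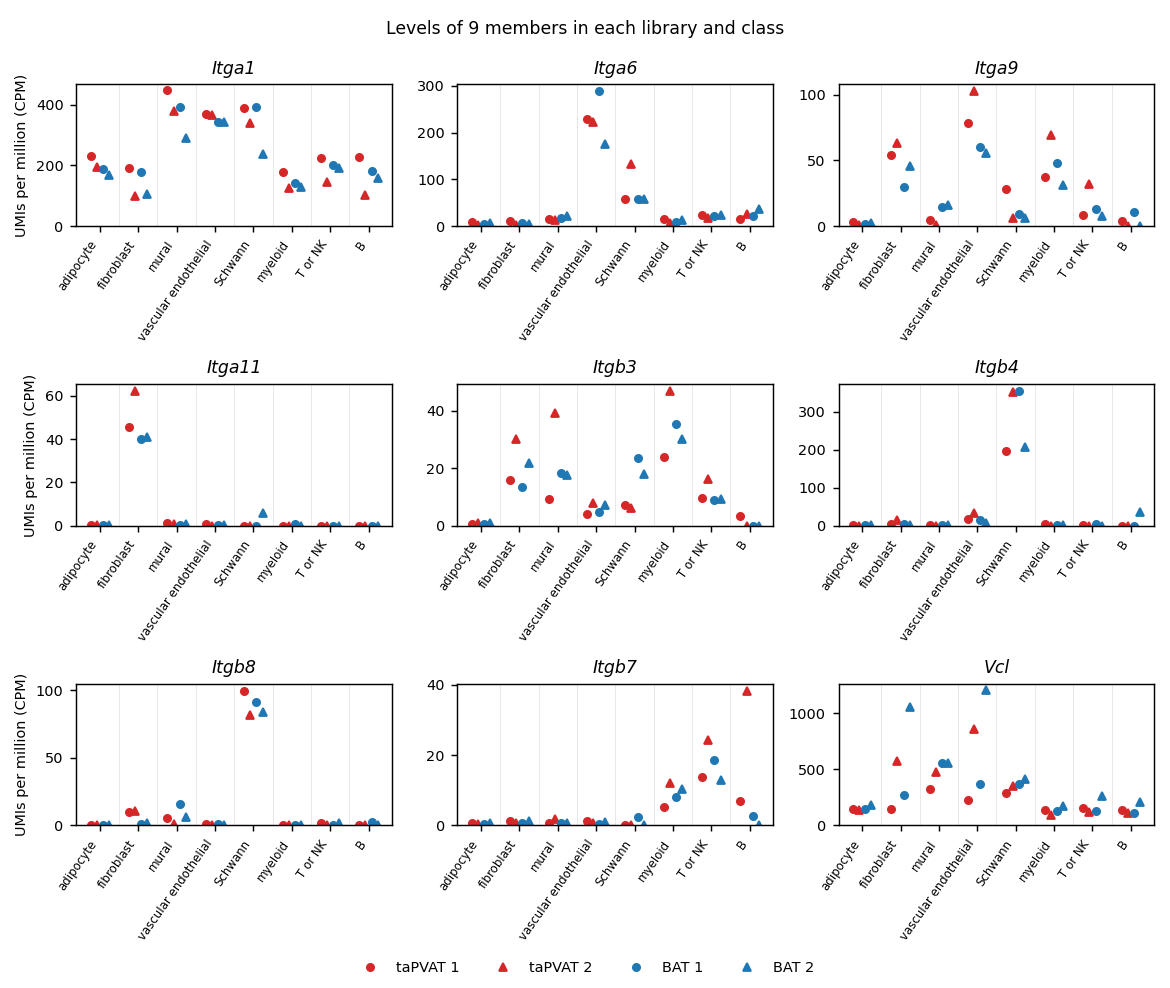
UMIs per 1000000 (vertical axis, linear, from 0) of 9 members in each class (horizontal axis), 1 point per library, red for taPVAT, blue for BAT, circles for replicate 1 and triangles for replicate 2. Itga6 peaks in vascular endothelial, Itga11 in fibroblast, Itgb4 and Itgb8 in Schwann nuclei, and Vcl separates circles from triangles in fibroblast and vascular endothelial nuclei.

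The leukocyte integrins followed myeloid and T or NK nuclei. Itgb2, the common beta chain of the leukocyte integrins, was at 95.6, 287, 155 and 147 CPM in myeloid nuclei and 38.1, 81.0, 56.9 and 22.1 CPM in T or NK nuclei, against 3.07 to 4.45 CPM in adipocytes. Its partner Itgal, the alpha chain of LFA-1, was at 137, 284, 203 and 232 CPM in myeloid and 53.7, 178, 64.0 and 49.8 CPM in T or NK nuclei. Itgam, the alpha chain of Mac-1 and known from monocytes, granulocytes and NK cells, was at 59.2, 97.6, 84.9 and 80.7 CPM in myeloid nuclei and at 12.7, 170, 39.1 and 22.1 CPM in T or NK nuclei. The T or NK value of taPVAT 2 came from 42 UMIs in 75 nuclei. All 3 genes were called higher in both classes, by 4.17 ± 0.16, 4.89 ± 0.20 and 4.20 ± 0.27 in myeloid nuclei and by 2.20 ± 0.24, 3.21 ± 0.29 and 3.21 ± 0.38 in T or NK nuclei. The myeloid markers summed to 46.1 to 85.0 CPM in T or NK nuclei and 2146 to 3568 CPM in myeloid nuclei. Itgb7, which pairs with Itga4 to bind the gut addressin, was higher in T or NK nuclei (13.7, 24.3, 18.7 and 12.9 CPM; 4.24 ± 0.43, adjusted p = 1.3e-09) and was higher in myeloid nuclei too (3.17 ± 0.45). Itgb7 had libraries with 0 UMIs in Schwann nuclei and B lymphocytes, and its fitted values depend on them. Its call in B lymphocytes (2.85 ± 0.90, adjusted p = 0.043) rested on 0 to 3 UMIs per library and was lost under 7 of the 9 other settings. Itgax, a chain of dendritic cells and some macrophages, gave 4 to 15 UMIs per library in myeloid nuclei, from 2.60 to 13.8 CPM.

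Itgam and Itgax are direct neighbours in the RefSeq annotation of the build GRCr8, so their promoters are set side by side. Each sequence is the 250 bases before the RefSeq start of the gene, 5′ to 3′, on the plus strand, with matches to GAGGAA or its reverse complement TTCCTC in capitals. That motif is the core of the sites bound by the myeloid transcription factor PU.1.
Itgam, chr1:192089342-192089591 (GRCr8): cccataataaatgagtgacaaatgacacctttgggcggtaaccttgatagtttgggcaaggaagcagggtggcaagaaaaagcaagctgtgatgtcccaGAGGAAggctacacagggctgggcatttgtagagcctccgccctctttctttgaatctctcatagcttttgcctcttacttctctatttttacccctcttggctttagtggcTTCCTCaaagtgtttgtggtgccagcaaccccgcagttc
Itgax, chr1:192149799-192150048 (GRCr8): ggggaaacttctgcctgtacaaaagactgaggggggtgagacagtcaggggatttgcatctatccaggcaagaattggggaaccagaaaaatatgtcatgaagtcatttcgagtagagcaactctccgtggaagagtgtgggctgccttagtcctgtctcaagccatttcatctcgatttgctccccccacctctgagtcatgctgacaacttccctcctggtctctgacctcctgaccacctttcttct
Itgam held 2 matches, beginning 151 and 39 bases before the start, and Itgax none. The windows of Itga4 and Itgb7 held none either, and Itgal and Itgb2 were not in the promoter table. Of all 33469 promoter windows of this length in the table, 23.3% held at least 1 match on either strand, and 7 of the 25 members in the table did, so the matches describe the letters of these windows only.

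The other beta chains also sorted by class. Itgb4, which pairs with Itga6 alone and links laminin to intermediate filaments, was at 196, 353, 355 and 207 CPM in Schwann nuclei (6.61 ± 0.31, adjusted p = 2.3e-19). In vascular endothelial nuclei it was at 18.8, 32.8, 15.5 and 7.49 CPM and also called higher (2.13 ± 0.36), so both classes that were high in Itga6 were high in its partner. Itgb8, which pairs with Itgav and is known for activating latent TGF-beta, was at 99.9, 82.0, 91.7 and 83.9 CPM in Schwann nuclei, on 13 to 39 UMIs per library (7.38 ± 0.47, adjusted p = 1.1e-14). Itgb8 had libraries with 0 UMIs in T or NK, B lymphocyte and myeloid nuclei, among others, and its fitted values depend on them. It was called higher in mural nuclei (3.41 ± 0.60) and fibroblasts (2.90 ± 0.67) as well, at 0.909 to 15.6 CPM and 1.31 to 10.5 CPM. Itgb3, a vitronectin receptor chain, was higher in myeloid nuclei (24.1, 47.0, 35.5 and 30.4 CPM; 2.76 ± 0.24), fibroblasts (1.89 ± 0.25), mural nuclei (1.88 ± 0.25) and Schwann nuclei (1.56 ± 0.46), the last call lost under 3 of the 9 other settings. Itgb1 was higher in mural nuclei (255, 371, 449 and 378 CPM; 0.92 ± 0.10), fibroblasts (0.60 ± 0.11) and vascular endothelial nuclei (0.47 ± 0.11), with the highest value in BAT 1 of the mural class. Itgb5 was lower in vascular endothelial nuclei, at 42.1, 37.9, 41.9 and 59.5 CPM (-0.87 ± 0.16, adjusted p = 5.4e-05), and higher in myeloid nuclei, at 146, 102, 117 and 97.8 CPM (0.61 ± 0.16, adjusted p = 0.0027). The myeloid call was lost under 2 of the 9 other settings, and in both libraries numbered 2 the myeloid value was below that of adipocytes. Itgb6, an epithelial chain, gave 10 to 12 UMIs per library in all adipocytes together and 0 to 2 in each library of every other class.

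By class, vascular endothelial nuclei had 16 of 32 members higher and 5 lower (21.8% and 17.9% of all genes tested), and fibroblasts 13 higher and 8 lower (18.1% and 13.2%). Mural nuclei had 14 higher and 4 lower (13.1% and 5.68%) and myeloid nuclei 14 higher and 8 lower (17.3% and 7.22%). T or NK nuclei had 6 higher and 4 lower (9.54% and 3.65%), Schwann nuclei 10 higher and 1 lower (8.28% and 3.93%) and B lymphocytes 2 higher and 4 lower (5.62% and 2.41%). The median log2 value over the members was 0.56 in mural nuclei, 0.29 in vascular endothelial nuclei, 0.17 in fibroblasts and 0.10 in myeloid nuclei, against medians of all genes tested within 0.03 of 0 in these classes. Without 1 library the members called lower were 3 in vascular endothelial nuclei (taPVAT 1 left out), 5 in fibroblasts (BAT 1), 2 in T or NK nuclei (BAT 1), 1 in B lymphocytes (BAT 2) and 0 in Schwann nuclei (any), and in B lymphocytes 1 was called higher without any of the 4. Over these classes and adipocytes, 96 of 131 calls held in every one of the 9 other settings in which the gene was tested. Of the calls given above or below with their values, those of Itga1 in Schwann nuclei, Pxn and Vcl in fibroblasts and Tns1 in myeloid nuclei were lost under 1 setting. The 6 Schwann calls that held include Itgb4 and Itgb8; 74.5% of Schwann nuclei had just the 3 markers needed to enter the class. Limiting nuclei to 5% mitochondrial UMIs kept 10.4% of fibroblasts, 12.8% of myeloid, 6.74% of vascular endothelial, 17.3% of T or NK and 21.2% of Schwann nuclei. Under this limit 4 members were higher in fibroblasts, 6 in myeloid, 10 in vascular endothelial, 3 in T or NK and 4 in Schwann nuclei. The shares of all genes called under this limit or without 1 library are not given here. A loss among the members can therefore not be told apart from a general loss of calls.

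Fibroblasts, mural and vascular endothelial nuclei were each called higher for 7 of the 32 tested members, where 2.68% of all genes tested were. Itgb1 is one, and the others are 6 of the 12 adaptors and signalling genes. Fermt2 (kindlin 2, which activates integrins), Ilk (integrin-linked kinase), Parva (alpha-parvin, its actin-binding partner), Vcl (vinculin, which binds talin and actin), Zyx (zyxin, a LIM protein of stress fibres) and Ptk2 (focal adhesion kinase) made up the 6. Parva had the values 235, 370, 256 and 250 CPM in mural nuclei (1.49 ± 0.16), 168, 352, 226 and 297 CPM in fibroblasts (1.34 ± 0.17) and 193, 334, 193 and 278 CPM in vascular endothelial nuclei (1.32 ± 0.16). In adipocytes it stood at 94.7, 50.2, 81.6 and 53.7 CPM, below each of those libraries. In myeloid nuclei Parva, Fermt2, Vcl and Ptk2 were lower (-1.23 ± 0.22, -0.72 ± 0.16, -0.97 ± 0.26 and -0.43 ± 0.11), and in T or NK nuclei Parva, Fermt2 and Ptk2 (-0.74 ± 0.24, -0.68 ± 0.18 and -0.69 ± 0.13), the Parva call there being lost under 3 of the 9 other settings. Zyx differed from them in being higher in myeloid nuclei (1.06 ± 0.24). Ptk2 was highest in vascular endothelial nuclei, at 255, 308, 271 and 220 CPM (1.44 ± 0.09, adjusted p = 2.9e-16).

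Other members of this group divided the classes in ways of their own. Pxn (paxillin, a scaffold of adhesion signalling) was higher in vascular endothelial nuclei (167, 243, 180 and 226 CPM; 2.31 ± 0.13), myeloid nuclei (1.22 ± 0.15), Schwann nuclei (0.76 ± 0.23) and fibroblasts (0.53 ± 0.15). The Schwann call was lost under 4 of the 9 other settings. It was lower in mural nuclei, at 24.8, 16.4, 23.7 and 23.5 CPM (-1.18 ± 0.18, adjusted p = 3.3e-06), close to its adipocyte values of 16.4 to 23.9 CPM. Parvb (beta-parvin) was higher in vascular endothelial nuclei alone (63.3, 112, 60.4 and 77.2 CPM; 1.99 ± 0.16, adjusted p = 2.8e-13). Tln1 (talin 1, the main activator of integrins) was higher in mural (0.88 ± 0.10) and myeloid nuclei (0.75 ± 0.10). Its relative Tln2 was at 153, 208, 179 and 186 CPM in Schwann nuclei (2.39 ± 0.16, adjusted p = 1.5e-14), and was lower in myeloid nuclei (-0.84 ± 0.17). Tns3 (tensin 3, which binds beta chain tails and actin) was higher in myeloid nuclei (97.6, 138, 120 and 106 CPM; 2.03 ± 0.16) and Schwann nuclei (1.89 ± 0.23), and lower in vascular endothelial nuclei (-1.53 ± 0.20). Tns1 stayed between 307 and 957 CPM over the libraries of the 8 classes. It was called higher in mural nuclei (0.42 ± 0.09) and lower in fibroblasts (-0.42 ± 0.10), myeloid nuclei (-0.35 ± 0.10) and B lymphocytes (-0.39 ± 0.12), beside the adipocyte value of 0.42 given above. The B lymphocyte call was lost under 6 of the 9 other settings.

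Vcl also differed between libraries of the same tissue. In vascular endothelial nuclei it was at 230 and 863 CPM in taPVAT and 373 and 1209 CPM in BAT, and in fibroblasts at 151 and 578 CPM in taPVAT and 273 and 1054 CPM in BAT. Both libraries numbered 2 were above both numbered 1 in these classes, while in mural nuclei the range was 324 to 559 CPM and in adipocytes 135 to 184 CPM. Zyx had the same order in vascular endothelial nuclei (30.5 and 33.4 CPM in the libraries numbered 1, 102 and 76.4 CPM in those numbered 2). The order by number was not particular to these genes. Across genes, deviations of same-numbered libraries from their tissue mean correlated by 0.734 in vascular endothelial nuclei (7188 genes) and 0.610 in fibroblasts (6807 genes). What the number stands for is not given in the sources used here, and its part in these values was not tested.

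Of 40 genes listed as adhesion partners of the members, 31 were tested between classes. In vascular endothelial nuclei 23 were higher and 5 lower (21.8% and 17.9% of all genes tested were), among them Kank3 (4.63 ± 0.22) and Actn1 (alpha-actinin 1, an actin crosslinker; 2.52 ± 0.19). In mural nuclei 13 were higher and 2 lower (13.1% and 5.68%), with Actn1 (3.74 ± 0.18), Tgfb1i1 (a paxillin relative known as Hic-5; 3.45 ± 0.35) and Flna (filamin A; 2.42 ± 0.19) the largest. In fibroblasts 13 were higher and 7 lower (18.1% and 13.2%), the largest being Tgfb1i1 (2.79 ± 0.41), the kinase Fyn (1.63 ± 0.16) and, lower, Fermt3 (-1.63 ± 0.29). In myeloid nuclei 7 were higher and 9 lower (17.3% and 7.22%), with Ptk2b (a kinase related to focal adhesion kinase; 4.16 ± 0.17), Pak1 (3.16 ± 0.35) and Fermt3 (kindlin 3, the kindlin of blood cells; 2.90 ± 0.17) the largest.

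Matrix ligands and counter-receptors of integrins were read the same way, with 18 of 26 tested. In fibroblasts 13 were higher and 1 lower (18.1% and 13.2% of all genes tested were), with Lama2 (a laminin alpha chain; 5.18 ± 0.15), Vcam1 (the counter-receptor of the Itga4 integrins; 3.44 ± 0.27) and Fn1 (fibronectin; 2.85 ± 0.22) the largest. In mural nuclei 9 were higher and 1 lower (13.1% and 5.68%), led by Postn (periostin; 5.28 ± 0.13), Vtn (vitronectin; 4.12 ± 0.19) and Ccn2 (3.32 ± 0.45). In vascular endothelial nuclei 11 were higher and 2 lower (21.8% and 17.9%), led by Lama5 (4.01 ± 0.25), Icam2 (a counter-receptor of LFA-1; 2.81 ± 0.21) and Fn1 (2.66 ± 0.21). Schwann nuclei were higher in Lama2 by 4.72 ± 0.17. Adipocytes had 2 of the 18 higher and 10 lower (25.7% and 19.6%).

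The second comparison set taPVAT against BAT, in all kept nuclei and within 6 classes, 2 libraries against 2. No member passed the adjusted threshold in any of the 7 fits of edgeR's quasi-likelihood test, and few genes of any kind did. These fits left the replicate number out, and fits with it as a block, which did call members, are given in the last section. All nuclei gave 0 calls in 16902 genes tested (0%), adipocytes 0 in 16092 (0%), mural nuclei 0 in 10430 (0%), vascular endothelial nuclei 0 in 11704 (0%), myeloid nuclei 0 in 9215 (0%), T or NK nuclei 0 in 7811 (0%) and fibroblasts 6 in 10380 (0.0578%). At an unadjusted p under 0.05 there was 1 member of 35 in all nuclei (2.78% of all genes), 1 of 35 in adipocytes (1.94%), 1 of 28 in fibroblasts (3.69%), 2 of 27 in mural nuclei (2.82%) and none in the vascular endothelial (1.5%), myeloid (1.19%) and T or NK fits (1.29%). DESeq2 called 95, 59, 41, 16, 5, 3 and 1 genes in all nuclei, adipocytes, fibroblasts, mural, vascular endothelial, myeloid and T or NK nuclei, and no member in any of them. Without the filter on low counts 43, 42, 159, 91, 51, 22 and 12 genes were called, with 2 members among them, Itgb8 in fibroblasts (2.66, adjusted p = 0.0097) and Itga9 in mural nuclei (-2.19, adjusted p = 0.0069). Leaving out 1 library gave 27, 23, 76 and 97 genes in fibroblasts without taPVAT 1, taPVAT 2, BAT 1 and BAT 2. In adipocytes 99 and 105 genes, in all nuclei 62 and 73 and in mural nuclei 98 and 21 were called without BAT 1 and BAT 2, among them 1 member, Itga5 in mural nuclei without BAT 1 (-1.87, adjusted p = 0.045). That fit has BAT 2 as its only BAT library, which was assumed to vary like the taPVAT libraries. Median member differences were within 0.07 of 0 on the log2 scale in the 7 fits. A missed threshold at this size does not show that the tissues are alike.

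**Figure D3:**
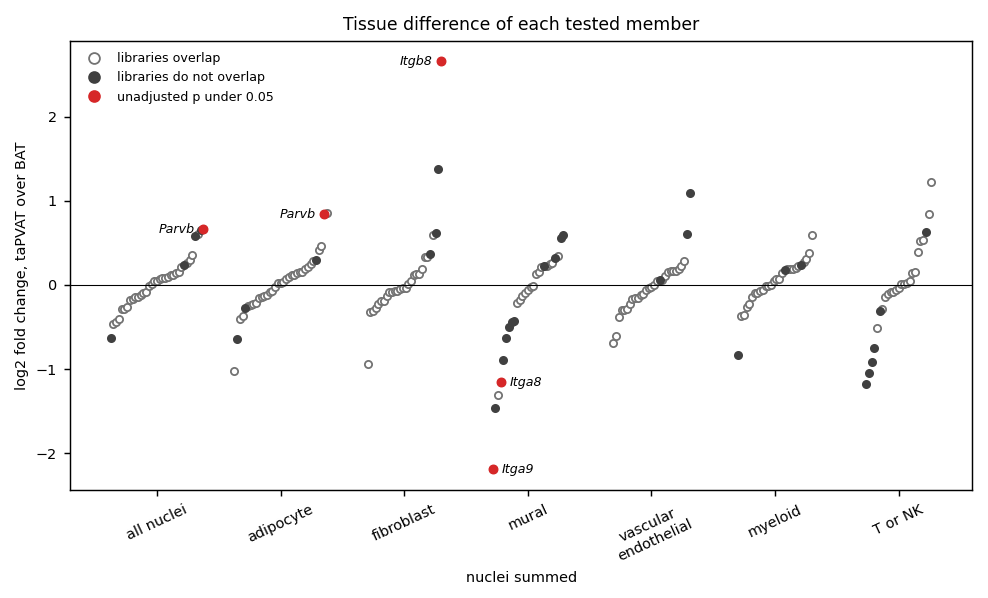
Log2 fold change of each tested member, taPVAT over BAT (vertical axis), in all nuclei and in 6 classes (horizontal axis), sorted within each. Filled grey points are members whose 2 libraries of one tissue both lie above those of the other, red points have an unadjusted p under 0.05, and no member has an adjusted p under 0.05.

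The members with the lowest p-values lay in stromal and vessel wall nuclei. Itgb8 in fibroblasts was at 10.1 and 10.5 CPM in taPVAT (40 and 15 UMIs) and 1.31 and 1.99 CPM in BAT (4 and 3 UMIs). Both taPVAT libraries were above both BAT libraries, by 2.66 ± 0.56 on the log2 scale (unadjusted p = 0.0020, adjusted p = 0.35). Itgb8 passed the filter on low counts through the taPVAT libraries alone. A gene at its BAT level in both tissues would not have been tested, so the p-value is no separate support. Markers of mesothelium, the cell layer that covers organ surfaces, moved with it. The 12 markers summed to 308 and 238 CPM in taPVAT fibroblasts, with 9 and 6 of them detected, and to 70.7 and 61.0 CPM in BAT fibroblasts, with 3 detected in each library. One of the 12, Gpm6a, was not confined to mesothelium. It stood at 140 CPM in kept nuclei of any class with none of the other markers of the list. Wt1, the next highest by that measure, stood at 1.74 CPM. The sums can therefore not be read as mesothelial RNA alone. Mesothelial nuclei of taPVAT themselves, 151 and 27 nuclei, had Itgb8 at 16.4 and 10.7 CPM, and the part of these markers in the difference was not tested. In adipocytes, Parvb was at 30.5 and 28.1 CPM in taPVAT and 20.9 and 13.1 CPM in BAT (0.84 ± 0.31, unadjusted p = 0.038, adjusted p = 0.99993).

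In mural nuclei the lowest p-values belonged to members that were lower in taPVAT. Itga9 was at 4.38 and 0.909 CPM in taPVAT (18 and 1 UMIs) and 14.2 and 16.0 CPM in BAT (40 and 40 UMIs), a difference of -2.19 ± 0.55 (unadjusted p = 0.0044, adjusted p = 0.78). Itga8 was at 22.6 and 18.2 CPM against 55.6 and 35.9 CPM (-1.16 ± 0.32, unadjusted p = 0.0078, adjusted p = 0.98). Itgb8, at 5.35 and 0.909 CPM against 15.6 and 5.98 CPM, did not overlap between the tissues either (-1.47 ± 0.69, unadjusted p = 0.067). Of the 27 members tested in mural nuclei, 8 had both taPVAT libraries below both BAT libraries and 4 above, where 11.7% and 13.7% of all genes tested did. Between BAT 1 and BAT 2, Itgb8 differed more than between BAT 2 and taPVAT 1.

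The smooth muscle markers of the mural list moved in the same direction. Acta2 was at 82.2 and 73.6 CPM in taPVAT and 223 and 203 CPM in BAT, Myocd at 36.7 and 20.9 CPM against 110 and 98.9 CPM, and Myh11, Tagln and Cnn1 were also lower in both taPVAT libraries. Markers of other cell types also separated the tissues in mural nuclei: the T or NK markers summed to 32.1 and 11.8 CPM in taPVAT and 53.1 and 41.1 CPM in BAT, the lymphatic endothelial markers to 23.4 and 22.7 against 2.48 and 7.18 CPM, the mesothelial markers to 170 and 114 against 62.0 and 65.8 CPM and the myeloid markers to 59.3 and 59.1 against 44.3 and 43.5 CPM. The mesothelial sums include Gpm6a, which was not confined to mesothelium. The part of these lists in the member values was not tested. The pericyte markers Pdgfrb, Rgs5, Abcc9, Kcnj8 and Notch3 were higher in both taPVAT libraries than in either BAT library. Notch3 (311 and 310 CPM) and Abcc9 (1241 and 1146 CPM) lay close together in taPVAT 1 and BAT 1. The rest of the mural list was not read this way. Mural nuclei were then split by how many of the 5 smooth muscle markers had a UMI, a split chosen after the values were seen. Nuclei with 2 or more made up 12.6% and 11.3% of mural nuclei in taPVAT and 23.0% and 22.9% in BAT, or 167, 38, 185 and 192 nuclei.

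Itga8, Itga9 and Itgb8 were highest in the nuclei with 2 or more smooth muscle markers in each library. There Itga8 was at 111, 79.0, 187 and 125 CPM, Itga9 at 15.1, 6.58, 53.3 and 56.3 CPM and Itgb8 at 26.9, 6.58, 63.3 and 23.5 CPM. In mural nuclei with 0 or 1 of the markers, Itga8 was at 2.91 to 16.4 CPM, Itga9 at 0 to 4.70 CPM and Itgb8 at 0 to 1.79 CPM over the libraries. Mural nuclei as a whole had Itga8 at 1.41 to 4.52 times its adipocyte level. The low Itga8 values were not set against adipocyte RNA, so expression there is not shown. Itga1 was also highest in the nuclei with 2 or more markers in each library, by a smaller ratio. It was at 556, 527, 577 and 396 CPM with 2 or more markers and at 412, 387, 266 and 253 CPM with none. Itga7 was likewise highest there in each library, at 175, 145, 168 and 120 CPM against 146, 70.9, 142 and 87.2 CPM with none and 133, 141, 143 and 92.5 CPM with 1. Itgb1, Itgb3 and Vcl had no such order: with 2 or more markers they were above the nuclei with none in 2, 1 and 2 of the 4 libraries. These are part of the nuclei in which the 3 genes were picked out, so their tissue values there are a description and no separate observation: the Itga8 and Itga9 libraries did not overlap between the tissues, and the Itgb8 libraries did. The taPVAT 2 values of Itga9 and Itgb8 there are 1 UMI each, with 95% Poisson intervals of 0.167 to 36.7 CPM.

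**Figure D4:**
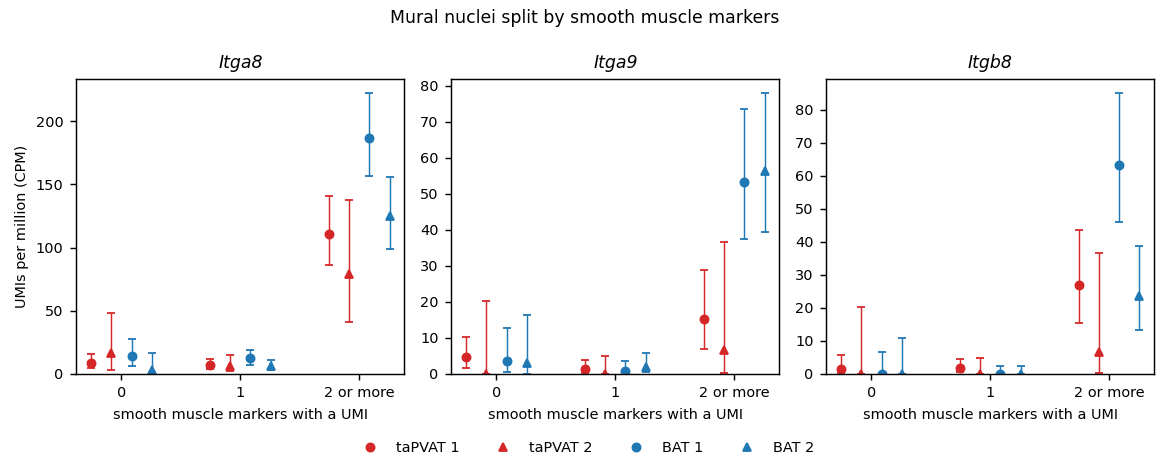
UMIs per 1000000 (vertical axis, linear, from 0) of Itga8, Itga9 and Itgb8 in mural nuclei with 0, 1 or at least 2 of 5 smooth muscle markers detected (horizontal axis), 1 point per library with its 95% Poisson interval. The 3 genes stand at 0 to 16.4 CPM in the nuclei with 0 or 1 marker and higher in those with 2 or more, where Itga9 is at 53.3 and 56.3 CPM in the BAT libraries and at 15.1 and 6.58 CPM in the taPVAT libraries.

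In vascular endothelial nuclei, Itga9 was at 78.4 and 103 CPM in taPVAT and 60.0 and 55.8 CPM in BAT (0.60 ± 0.27, unadjusted p = 0.067), and Itgb4 at 18.8 and 32.8 CPM against 15.5 and 7.49 CPM (1.09 ± 0.46, unadjusted p = 0.052). Neither overlapped between the tissues, as was the case for 3 higher members of 29 tested and 0 lower (12.6% and 8.22% of all genes). The 8 lymphatic endothelial markers, a class in which Itga9 was at 285 to 906 CPM, summed to 60.5 and 115 CPM in taPVAT and 20.6 and 49.2 CPM in BAT within the vascular endothelial nuclei. The 12 mesothelial markers summed to 180 and 86.8 CPM against 54.4 and 52.6 CPM in these nuclei, and to 215 and 180 CPM against 93.8 and 97.2 CPM in adipocytes. These sums too include Gpm6a and are not mesothelial RNA alone. The T or NK markers summed to 90.9 and 124 CPM in taPVAT and 79.0 and 68.9 CPM in BAT within the vascular endothelial nuclei. The part of any of these lists in the Itga9 and Itgb4 values was not tested. Of the 28 members tested in fibroblasts, 4 did not overlap and were higher in taPVAT (13.5% of all genes were), namely Itgb8, Itgb4 (1.38 ± 0.71), Itga9 (0.61 ± 0.35) and Itga11 (0.36 ± 0.31). In fibroblasts the lymphatic endothelial markers summed to 50.1 and 46.9 CPM in taPVAT and 10.1 and 19.9 CPM in BAT. The T or NK markers summed to 20.6 and 23.8 against 18.3 and 14.6 CPM there. The part of either list in the fibroblast values was not tested.

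Tln2 was lower in taPVAT in several fits that were made on different nuclei of the same libraries. Its libraries did not overlap in adipocytes (26.3 and 31.6 CPM against 34.5 and 58.5 CPM; -0.64 ± 0.36), mural nuclei (-0.63 ± 0.31), myeloid nuclei (-0.83 ± 0.40) and T or NK nuclei (-1.18 ± 0.55), with unadjusted p from 0.058 to 0.13. In the other classes adipocyte RNA is present, so these values are not separate observations. Adipocytes had 2 non-overlapping members higher and 2 lower of 35 (8.95% and 10.8% of all genes), myeloid nuclei 2 and 1 of 28 (10.2% and 10.9%), T or NK nuclei 1 and 5 of 25 (11.5% and 11.8%) and all nuclei 4 and 1 of 35 (11.6% and 9.89%). In all nuclei these were Itga1, Itga9, Itga11 and Parvb, higher, and Tln2, lower. Fibroblasts, the class with Itga11, were 3.08 and 4.20% of taPVAT and 2.78 and 2.16% of BAT nuclei, and lymphatic endothelium, high in Itga9, 0.647 and 0.365% against 0.0376 and 0.0634%. More such nuclei and more RNA per nucleus cannot be told apart in the all-nuclei sums. There the libraries overlapped in the other integrin chains, Itga2, Itga3, Itga4, Itga5, Itga6, Itga7, Itga8, Itga10, Itgal, Itgam, Itgav, Itgax, Itgb1, Itgb2, Itgb3, Itgb4, Itgb5, Itgb6, Itgb7 and Itgb8. They also overlapped in Fermt2, Ilk, Parva, Ptk2, Pxn, Tln1, Tns1, Tns3, Vcl and Zyx. None of the genes on the partner and ligand lists passed the adjusted threshold between the tissues in any fit. In mural nuclei 6 of 19 ligands had an unadjusted p under 0.05, where 2.82% of all genes did, and of the 19 the libraries of 5 were lower in taPVAT without overlap and those of 1 higher (11.7% and 13.7% of all genes).

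Whether the tissue difference of a class departed from that of adipocytes was tested with an interaction term over 11691 genes and 33 members. No member passed the adjusted threshold of edgeR's quasi-likelihood test in any of the 5 terms. Over all genes 3 passed in the fibroblast term (0.0257%), 7 in the mural term (0.0599%) and 0 in the vascular endothelial (0%), myeloid (0%) and T or NK terms (0%). At an unadjusted p under 0.05 there was 1 member in the fibroblast term (2.93% of all genes), 3 in the mural term (2.18%) and none in the vascular endothelial (1.28%), myeloid (1.28%) and T or NK terms (2.25%). Of the ligands 5 of 20 did in the mural term. The fibroblast member was Pxn, with a difference of differences of 0.90 ± 0.29 (unadjusted p = 0.0071). The mural members were Itga9 (-2.36 ± 0.75, unadjusted p = 0.0053), Itgb8 (-2.35 ± 0.90, unadjusted p = 0.018) and Itga8 (-1.03 ± 0.41, unadjusted p = 0.022), the 3 genes shown in the split of mural nuclei.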

How the data were processed

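Nuclei of 2 taPVAT and 2 BAT libraries were sequenced with the 10x 3′ v3.1 kit. The deposited values are raw UMI counts per gene and barcode in filtered matrices, made by the authors with Cell Ranger 7.1.0 on the build Rnor_6.0, per the file headers and the submitters' processing notes. Barcodes with at least 500 genes were kept. A class other than adipocytes needed 3 markers of its list and a marker share at least 5 times the mean over all kept nuclei. Adipocytes were the nuclei with no other list at 2 markers and 5 times the mean, 3 adipocyte markers and an adipocyte marker share of at least 0.5 times the mean. Of 15 lists with 180 markers (174 in the files), 14 markers that did not separate nuclei were dropped, and the 12 lists with at least 5 markers left were used. Nuclei passing 2 lists were left out as likely doublets, and no doublet caller was run. The gate levels were set on these data. No member is a marker.

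UMI counts were summed per library and class and tested with edgeR 4.0.16 (R 4.3.3; quasi-likelihood test, TMM, filterByExpr, Benjamini-Hochberg over all genes, threshold 0.05), with DESeq2 1.42.0 as an alternative. An SE is the size of the log2 fold change over the root of F. Classes needed 20 nuclei in every library. The class fit held 9 classes, and the erythroid class entered it as part of the reference mean only. Its list also named the platelet markers Pf4, Ppbp and Gp9, which were dropped. Every member is named. Of the partner and ligand lists, genes were named if called and among the 3 of largest change, except for a result that is not reported here. Members and lists were chosen with earlier results of these data known. Alternatives were other gates, scalings, filters, a replicate block and leaving out each library. The fits were tested on simulated data with 200 genes changed 4-fold. The tissue fits recovered 36% of these in adipocytes, 78% in fibroblasts and 89.5% in mural nuclei, with 0, 11 and 7 false calls. The class fit of mural nuclei recovered 100%, with 7 false calls. The changed genes were drawn only from those with enough expected UMIs. All genes had the same dispersion, and libraries were simulated independently of each other. The recovered shares therefore do not hold for members with few UMIs. Promoters are RefSeq's, build GRCr8.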

Additional observations from a re-analysis of the deposited data

How the results depend on the processing

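With 2 libraries per tissue, the count of genes called between the tissues depended on the setting. Of the member differences, 24 were recomputed, and they kept their sign in each setting that tested them (16 to 24 of the 24). Libraries that do not overlap keep the sign by construction when 1 is left out, so this says nothing of the other members. The labels do not tie the replicate numbers together. Across genes, deviations of same-numbered libraries from their tissue mean correlated by 0.736 in all nuclei and 0.410 (T or NK) to 0.734 (vascular endothelial) in the classes, over only 2 pairs. With the replicate number as a block, 193 genes were called in all nuclei, 342 in adipocytes, 171 in fibroblasts, 100 in mural, 106 in vascular endothelial, 71 in myeloid and 15 in T or NK nuclei. The members among them were 1 in adipocytes (Parvb, 0.87), 1 in fibroblasts (Itgb8, 2.67) and 2 in mural nuclei (Itga8, -1.19, and Itga9, -2.16). Without the filter on low counts, where genes with few UMIs enter, the same 7 fits called 43, 42, 159, 91, 51, 22 and 12 genes, with 1 member in fibroblasts (Itgb8) and 1 in mural nuclei (Itga9). DESeq2 called 95, 59, 41, 16, 5, 3 and 1. In fibroblasts, where 6 genes were called, the count was 0 with at least 1000 genes per nucleus, 0 with the nuclei of 2 lists put back, 1 with the looser gate and 0 with at most 5% mitochondrial UMIs. In mural nuclei it was 1 with the stricter gate and 1 without the tenth of nuclei with most UMIs, and the mural interaction gave 1 with the stricter gate in place of 7. With each library left out in turn, the counts ran from 0 to 73 in all nuclei, 0 to 105 in adipocytes, 23 to 97 in fibroblasts, 0 to 98 in mural, 0 to 7 in vascular endothelial, 0 to 4 in myeloid and 0 to 22 in T or NK nuclei, and members called in mural nuclei from 0 to 1.

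Between classes, the limit of 5% mitochondrial UMIs, chosen after seeing the data like the settings on the erythroid class and on nuclei with most UMIs, kept 23.2% of adipocytes and 6.74% of vascular endothelial nuclei. It left 0 members higher and 10 lower in adipocytes, 4 and 2 in fibroblasts, 10 and 2 in vascular endothelial, 6 and 1 in myeloid, 3 and 0 in T or NK, 1 and 1 in B lymphocyte and 4 and 0 in Schwann nuclei, and 2 lower in mural nuclei. The stricter gate gave 4 lower in fibroblasts, 2 lower in mural nuclei, 1 higher and 1 lower in B lymphocytes, and 5 higher and 0 lower in Schwann nuclei. Under it Itgam in adipocytes (0.32) and Itgal in vascular endothelial nuclei (0.23), both called lower with the main gate and not called here, had the other sign. The looser gate gave 8 lower in vascular endothelial, 7 lower in T or NK and 2 lower in Schwann nuclei. Library size scaling gave 1 higher in adipocytes, 1 lower in B lymphocytes and 0 lower in Schwann nuclei. Without the filter 8 were lower in T or NK, 11 in B lymphocyte and 3 in Schwann nuclei. DESeq2 gave 1 higher in adipocytes and 0 lower in Schwann nuclei. Without the erythroid class 1 was higher in adipocytes and 1 in B lymphocytes, and 7 were lower in B lymphocytes and 6 in T or NK nuclei. Without the tenth of nuclei with most UMIs 7 were lower in T or NK and 0 in Schwann nuclei. With each library left out, members higher ran from 1 to 3 in adipocytes, 12 to 13 in fibroblasts, 14 to 15 in mural, 15 to 16 in vascular endothelial, 13 to 14 in myeloid, 8 to 9 in Schwann, 6 in T or NK and 1 in B lymphocyte nuclei. Members lower ran from 15 to 17, 5 to 7, 4 to 4, 3 to 5, 7 to 8, 0 to 0, 2 to 5 and 1 to 5 in the same order. Shares of all genes called between classes are not given for these settings, so the counts do not show whether members changed more than other genes. The cause of these changes was not tested.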
